A study of Mus musculus with 8 samples.

Results

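The Ifi200 genes of mouse chromosome 1 were described in naive corneas of 2 inbred strains. The members were 10 genes, namely Ifi202b, Ifi203, Ifi204, Ifi205, Ifi207, Ifi209, Ifi211, Ifi213, Mndal and Aim2, and all 10 were found by their Ensembl identifiers among the 54532 genes of the expression table. The family was chosen by the rlog differences of its genes between the strains in these corneas, so the strain differences of the members are given as a description. No p-value is given for a member, and the calls of the fit across all genes are only counted, beside the share of all genes. Total RNA was taken from 4 corneas of BALB/cN and 4 corneas of C57BL/6N mice. The mice were male and the corneas were untreated, and no further allele or agent was named for either strain. The labels do not say whether the 4 corneas of a strain came from separate animals, so the spread given below is that between corneas. Each group is an inbred strain, and the whole genetic background therefore differed between the groups together with the cluster itself.

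Ifi200 proteins, also called HIN-200 or PYHIN proteins, are interferon-inducible and bind DNA through a carboxy-terminal HIN domain. Most also carry an amino-terminal PYRIN domain, through which AIM2 assembles the inflammasome with the adaptor ASC and caspase-1 when double-stranded DNA is present in the cytosol. The genes lie side by side in a cluster that arose by repeated duplication, and the number and arrangement of its genes are known to differ between inbred strains.

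The sequences that follow are stretches around a motif near the starts of these genes, chosen for holding it, so its fixed letters match by choice. Each stretch is 60 bases of the RefSeq sequence of GRCm38.p6, that is of the reference strain C57BL/6J, written 5′ to 3′ on the strand of the gene. Capitals mark GAAA and GAAA separated by 2 further bases, the core of the interferon-stimulated response element to which the factors of interferon signalling bind. The match began 35 bases before the start of Ifi203, 36 before Mndal, 37 before Ifi211, 41 before Ifi207, 73 before Ifi213 and 134 before Ifi205. Ifi203 and Mndal have more than 1 RefSeq start, and the distance is counted from the start nearest to the stretch shown. Ifi205 held a further match after its start. Ifi214 is a family gene outside the 10. Ifi209 is shown for contrast, because its stretch, chosen as the one most similar to that of Ifi214, lacks the match.
Ifi203, chr1:173942493-173942552, minus strand: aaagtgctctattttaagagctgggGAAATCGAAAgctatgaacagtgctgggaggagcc
Mndal, chr1:173880189-173880248, minus strand: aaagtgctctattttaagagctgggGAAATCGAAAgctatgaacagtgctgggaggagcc
Ifi211, chr1:173913049-173913108, minus strand: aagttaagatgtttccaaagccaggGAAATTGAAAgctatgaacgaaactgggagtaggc
Ifi205, chr1:174031855-174031914, minus strand: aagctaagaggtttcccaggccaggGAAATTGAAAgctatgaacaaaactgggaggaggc
Ifi207, chr1:173741816-173741875, minus strand: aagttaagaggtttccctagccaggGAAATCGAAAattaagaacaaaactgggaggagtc
Ifi213, chr1:173599311-173599370, minus strand: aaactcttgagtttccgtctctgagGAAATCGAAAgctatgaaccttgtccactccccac
Ifi214, chr1:173536002-173536061, minus strand: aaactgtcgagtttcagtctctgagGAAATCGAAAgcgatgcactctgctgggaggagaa
Ifi209, chr1:173630755-173630814, plus strand: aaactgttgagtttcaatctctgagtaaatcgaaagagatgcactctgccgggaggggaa

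The stretches of Ifi203 and Mndal were identical at 60 of 60 bases. So were those of Ifi213 and Ifi208, a family gene outside the 10 whose stretch is not shown. Ifi211 and Ifi205 matched at 54 bases, as did Ifi209 and Ifi214, where the stretch of Ifi209 had been picked for that likeness. The stretch of Ifi203 matched that of Ifi209 at 40 bases and that of Ifi213 at 34. The 10 letters of Ifi209 at the place of the core differed from this core at 1 of its fixed letters.

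The motif was searched on both strands of windows of 300 bases, from 250 before to 50 after each RefSeq start. Of the 10 members, 9 had such a window, with 11 windows in all, and Ifi204 had none. The core was present in 6 members, against 3.44% of the 32851 windows of all genes. Within 1 mismatch of the core, the share over all windows was 35.4%. The family genes Ifi206, Ifi208 and Ifi214 held a match each, while Aim2, Ifi209 and Ifi202b held none. The second motif searched, TTCNNNGAA, is the gamma-activated sequence of interferon signalling, and it was present in 8.30% of all windows. Among the members it was found in Ifi202b alone, 148 bases before the start. That stretch is shown because Ifi202b had the highest level of the family, with capitals marking the element.
Ifi202b, chr1:173982958-173983017, minus strand: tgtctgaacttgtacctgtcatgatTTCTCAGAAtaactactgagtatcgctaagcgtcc

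The deposited values are rlog values, which are read counts on a log2 scale, normalised for library size. They are drawn towards the gene's mean over all corneas, most strongly where reads are few. A fold change is therefore too small on this scale, also for members with many reads. Ifi202b, with the most reads, had an rlog difference of 0.84 and a log2 ratio of mean recovered reads of 1.13. The reads behind the rlog values were recovered by inverting the transformation, and they are given beside it. Recovered totals were 36.7 to 41.2 M reads in BALB/cN and 29.7 to 37.0 M in C57BL/6N. Normalised reads are recovered reads divided by the size factor of the cornea. For Ifi202b, Ifi203 and Mndal in BALB/cN, with over 1000 reads, the recovered number lay up to 0.45 from a whole number. This distance does not bound the error, so these reads are approximate by an unknown amount. For Ifi213, with few reads, it lay up to 0.36 from a whole number, so that its reads are approximate as well. Krt12, the keratin of the corneal epithelium, had 858000 ± 77200 normalised reads in BALB/cN and 860000 ± 87900 in C57BL/6N (SD, n = 4 each), so this defining marker of the labelled tissue was abundant in both strains.

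Across the family, the strains differed in level and in make-up. All 10 members passed the filter of a mean rlog value of at least 0, as did 25402 genes in all. The corneas of the strains did not overlap in 8 members, 5 with BALB/cN above and 3 with BALB/cN below, where 18.3% of all tested genes did not overlap, 8.75% higher and 9.58% lower. Ifi205 and Aim2 overlapped, and Ifi213 was separated by values near the limit of detection. The fit across all genes with limma (adjusted p of 0.01 or less) called 6 members, 5 higher and 1 lower, against 5.74% of tested genes, 2.83% higher and 2.91% lower. Since this contrast was used to name the members, nothing is read from these shares. The median rlog difference, BALB/cN minus C57BL/6N, was 0.53 over the 10 members and 0.01 over all tested genes.

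**Figure D1:**
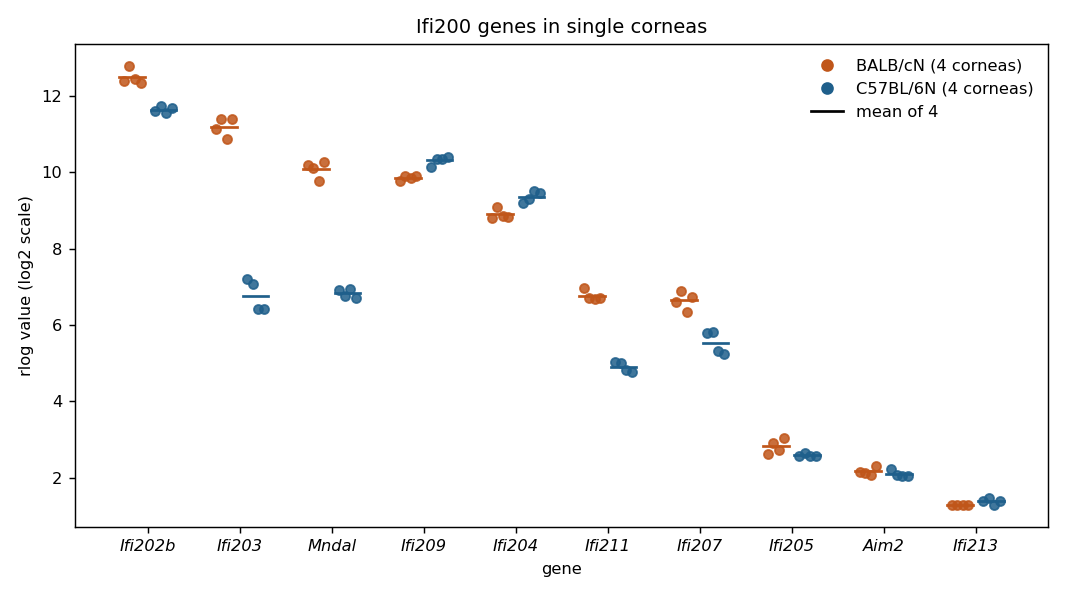
The rlog value (log2 scale) of each Ifi200 gene is plotted for each cornea, 4 of BALB/cN and 4 of C57BL/6N, with a line at the mean of 4. The widest gaps are in Ifi203 and Mndal, Ifi209 and Ifi204 lie the other way, and Ifi205 and Aim2 overlap.

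Ifi203 encodes a nuclear HIN-200 protein and had the largest strain difference of the family. The gene (ENSMUSG00000039997) lies at chr1:173920407-173942672 on the minus strand of GRCm38. About 4052, 4881, 2893 and 4389 reads were recovered in BALB/cN corneas 1 to 4, and 72, 61, 11 and 16 in C57BL/6N corneas 1 to 4. The lowest BALB/cN cornea thus stood far above the highest C57BL/6N cornea. Normalised reads were 3680 ± 738 in BALB/cN and 41.3 ± 30.3 in C57BL/6N (SD, n = 4 each), an 89.1-fold difference. On the rlog scale it was 4.43 (SE 0.20).

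Mndal, related to the human myeloid nuclear differentiation antigen, showed the next largest rlog difference. Its annotated span (ENSMUSG00000090272, chr1:173849126-173942491, minus strand) runs across Ifi211 and into Ifi203, and the exons of Mndal and Ifi203 share 37 bases. Reads numbered about 2010, 1864, 1276 and 1919 in BALB/cN and 61, 49, 48 and 41 in C57BL/6N. The C57BL/6N corneas differed little among themselves, unlike in Ifi203. Normalised reads were 1600 ± 285 and 53.8 ± 9.12, a 29.8-fold difference, with an rlog difference of 3.26 (SE 0.11). Summed over Ifi203 and Mndal, normalised reads were 5280 ± 987 in BALB/cN and 95.1 ± 34.1 in C57BL/6N.

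Ifi211 (ENSMUSG00000026536, chr1:173896345-173913046, minus strand) lies inside the span of Mndal. It had 265, 196, 177 and 179 reads in BALB/cN and 9, 9, 1 and 1 in C57BL/6N. The C57BL/6N corneas were therefore close to the limit of detection, taken as 3 reads per cornea, and 2 of them were under it. Normalised reads were 185 ± 28.5 and 5.12 ± 4.57, 36.0-fold higher in BALB/cN, although the rlog difference was only 1.85 (SE 0.10).

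Ifi207 (ENSMUSG00000073490, chr1:173723427-173741747, minus strand) had 160, 219, 105 and 167 reads in BALB/cN. In C57BL/6N the counts were 40, 44, 9 and 8, below every BALB/cN cornea. Normalised reads were 147 ± 39.2 and 26.1 ± 18.8, a 5.63-fold difference, and the strains stood 1.1 apart in rlog value (SE 0.17).

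Ifi202b encodes p202, a family protein without a PYRIN domain that binds DNA and restrains AIM2. The gene (ENSMUSG00000026535) lies at chr1:173962568-173982744 on the minus strand. It had about 6743, 9413, 6435 and 5621 reads in BALB/cN and about 2744, 3137, 2085 and 2885 in C57BL/6N, the most of any member in each cornea. Normalised reads were 6380 ± 1260 and 2900 ± 230, so that the strains were separated by a smaller factor of 2.20 than in the 4 genes above. The rlog difference was 0.84 (SE 0.10).

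Ifi209 and Ifi204 were lower in BALB/cN. Ifi209 (ENSMUSG00000043263, chr1:173630917-173647928, plus strand) had 943, 1044, 917 and 934 reads in BALB/cN and 1108, 1416, 1105 and 1399 in C57BL/6N. After normalisation the 4 BALB/cN corneas lay between 808 and 913 and the C57BL/6N corneas between 1130 and 1480. The level was 1.55-fold lower in BALB/cN, with an rlog difference of -0.46 (SE 0.07).

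Ifi204 encodes p204, a DNA-binding protein that signals through STING. The gene (ENSMUSG00000073489) lies at chr1:173747293-173766943 on the minus strand, between Ifi207 and the pseudogene Ifi203-ps. Its reads were 470, 617, 447 and 430 in BALB/cN and 588, 661, 650 and 723 in C57BL/6N. Normalised reads were 403 to 539 in BALB/cN and 599 to 822 in C57BL/6N, 1.60-fold lower in BALB/cN, and the rlog difference was -0.47 (SE 0.09). The corneas of the strains did not overlap.

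Aim2, Ifi205 and Ifi213 were near the limit of detection. Aim2, the cytosolic DNA receptor of the inflammasome (ENSMUSG00000037860, chr1:173350879-173466040, plus strand), had 7, 5, 1 and 15 reads in BALB/cN and 10, 1, 0 and 0 in C57BL/6N. Its corneas overlapped, and a strain difference in Aim2 was not detectable at this depth. Ifi205 encodes p205, which is known to affect the level of the ASC transcript in macrophages (ENSMUSG00000054203, chr1:174011998-174031810, minus strand). It had 3, 20, 8 and 28 reads in BALB/cN and 0, 4, 0 and 0 in C57BL/6N. The lowest BALB/cN cornea lay under the highest C57BL/6N cornea. Ifi213 (ENSMUSG00000073491, chr1:173566283-173599274, minus strand) had 0 reads in each BALB/cN cornea and about 5, 10, 0 and 6 in C57BL/6N. With 1 C57BL/6N cornea at 0 reads as well, its strains count as not overlapping on the rlog scale only because that cornea stood above the BALB/cN corneas in the third decimal. The rlog difference was -0.10.

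**Figure D2:**
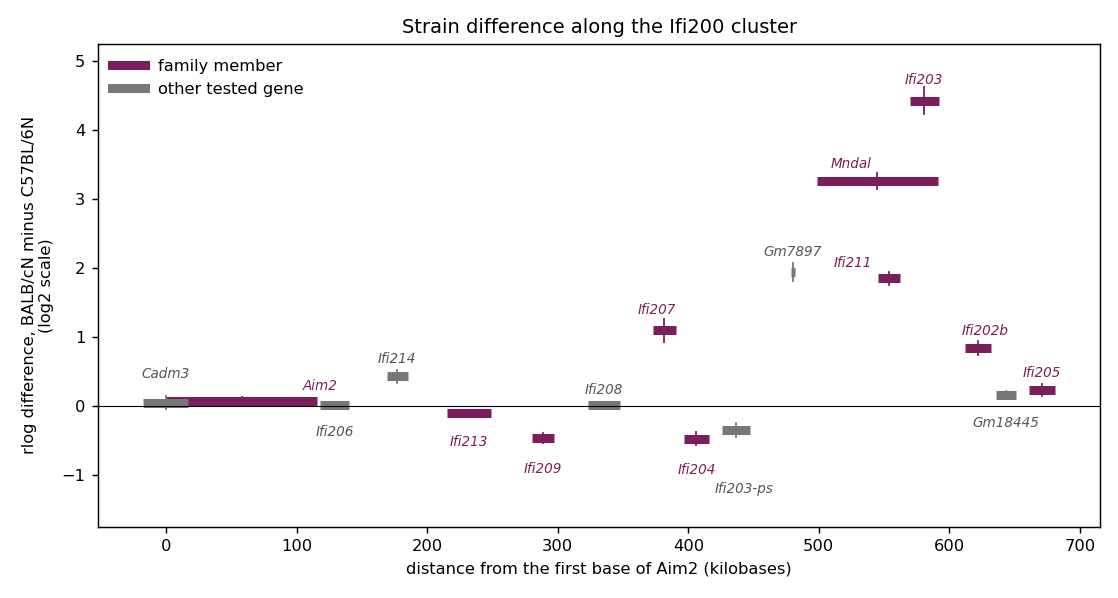
The rlog difference between the strains (BALB/cN minus C57BL/6N, log2 scale) is drawn along the cluster, with x as the distance in kilobases from the first base of Aim2, each gene as a bar of its own length and a vertical line of ±1 SE. The differences of Ifi203 (4.43), Mndal (3.26), Gm7897 (1.94) and Ifi211 (1.85) lie near each other, with Ifi204 (-0.47) and Ifi203-ps (-0.35) on their Aim2 side.

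Along the chromosome, the members spanned 680.9 kb. Members of opposite direction were neighbours, since Ifi207 was higher and the adjoining Ifi204 lower in BALB/cN. From Mndal to Ifi205, all 5 members had a higher mean in BALB/cN, 4 of them without overlap. Between the outer members 12 further genes were annotated, of which 5 were listed at 0 in all corneas and 7 were tested. Gm7897, an unprocessed pseudogene of 554 exon bases at chr1:173829799-173832254, was higher in BALB/cN. It had 477, 744, 584 and 364 reads there and 43, 56, 39 and 49 in C57BL/6N, that is 490 ± 135 and 50.2 ± 5.07 normalised reads (limma, rlog difference 1.94, SE 0.13, adjusted p = 1.53e-05).

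The other 6 tested genes of the interval were not called. Ifi214 had 42, 58, 42 and 27 reads in BALB/cN and 9, 5, 3 and 16 in C57BL/6N, with an rlog difference of 0.43 (SE 0.09, limma, adjusted p = 0.0134). Ifi203-ps had 197, 193, 145 and 157 reads in BALB/cN against 173, 244, 193 and 276 in C57BL/6N, and its rlog difference was -0.35 (limma, adjusted p = 0.0561). The pseudogene thus did not share the direction of Ifi203. Gm18445 was listed with 2, 18, 3 and 14 reads in BALB/cN and 0 in C57BL/6N (limma, adjusted p = 0.135). Ifi206 and Ifi208 had at most 5 reads in any cornea, and Cadm3 overlapped between the strains (adjusted p = 0.801). Within 500 kb on either side, Fmn2 passed the filter and was not called by limma (rlog difference 0.37, adjusted p = 0.619).

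Members of the cluster share sequence, so reads can be placed at more than 1 gene. Windows of 100 bases, the read length used, were taken from the spliced reference transcripts, and only those found in another annotated gene without a mismatch were counted as shared. Of all windows of Ifi211, 56.9% also occurred in another gene, 37.3% in Ifi205 and 19.6% in Ifi204. The share was 16.9% for Ifi209, all with Ifi214, 15.0% for Ifi205 and 10.7% for Ifi204. It was 6.38% for Mndal, 3.30% for Ifi213, 2.84% for Ifi203 and 0.79% for Ifi207. No window of Ifi202b or Aim2 recurred. Ifi203 and Ifi202b, the members with the most reads in BALB/cN, were therefore among those with the least sequence shared without a mismatch. Near-identical stretches are not counted in this way. Over aligned stretches of at least 500 bases, Ifi203 was 97.8% identical to Ifi203-ps (671 bases) and Mndal 95.7% to Ifi204 (776 bases). The nearest for Ifi202b was Ifi211, at 77.4% (615 bases). Misplacement of reads between such genes was not tested.

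Sums over sequence-sharing genes, chosen after the values had been seen, were compared for this reason. Ifi204 and Ifi211 together gave 630, 711, 587 and 590 normalised reads in BALB/cN and 609, 669, 823 and 766 in C57BL/6N. These sums overlapped, although each gene alone separated the strains in opposite directions. Ifi205 and Ifi211 together gave 198 ± 23.6 against 6.12 ± 5.94, and Ifi203 with Ifi203-ps gave 3830 ± 748 against 280 ± 30.8. Ifi209 with Ifi214 stayed lower in BALB/cN, at 910 ± 50.7 against 1360 ± 156.

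The reads were aligned to versions of GRCm38 that carried the known single-base and short insertion or deletion variants of each strain. Such a genome holds the gene copies of the reference, so reads from a BALB/cN copy absent from the reference can be counted at its nearest reference gene, and reads of a gene missing in BALB/cN can come only from related copies. The copy number of each gene in these mice was not analysed here. More copies and more RNA per copy cannot be told apart in these values.

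**Figure D3:**
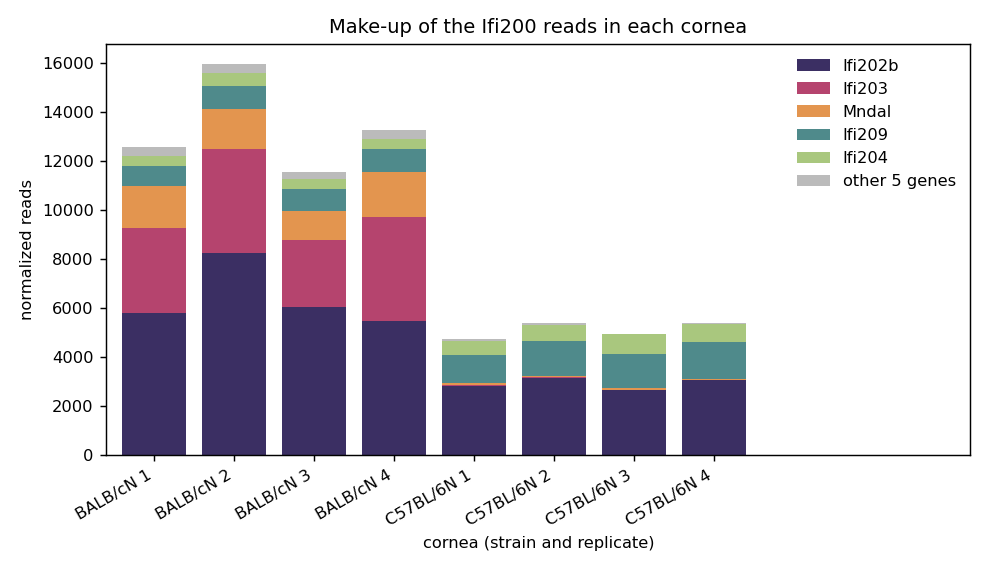
Stacked bars give the normalised reads of the Ifi200 genes in each cornea, by gene. The BALB/cN bars reach 11500 to 16000 reads and the C57BL/6N bars 4730 to 5390, with Ifi203 and Mndal almost absent from the latter.

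Summed over the 10 members, the BALB/cN corneas held 12600, 16000, 11500 and 13300 normalised reads and the C57BL/6N corneas 4730, 5390, 4940 and 5370. The means were 13300 ± 1890 and 5110 ± 327 (SD, n = 4 each), 2.61-fold higher in BALB/cN. Ifi202b made up 47.7% ± 5.37 of the family's reads in BALB/cN and 56.9% ± 2.49 in C57BL/6N. Ifi203 contributed 27.5% ± 3.43 and 0.819% ± 0.626, and Mndal 12.1% ± 2.03 and 1.07% ± 0.245. The place after Ifi202b was taken in C57BL/6N by Ifi209 with 26.5% ± 1.95 and Ifi204 with 13.9% ± 1.99, which in BALB/cN held 6.61% ± 0.751 and 3.34% ± 0.235.

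**Figure D4:**
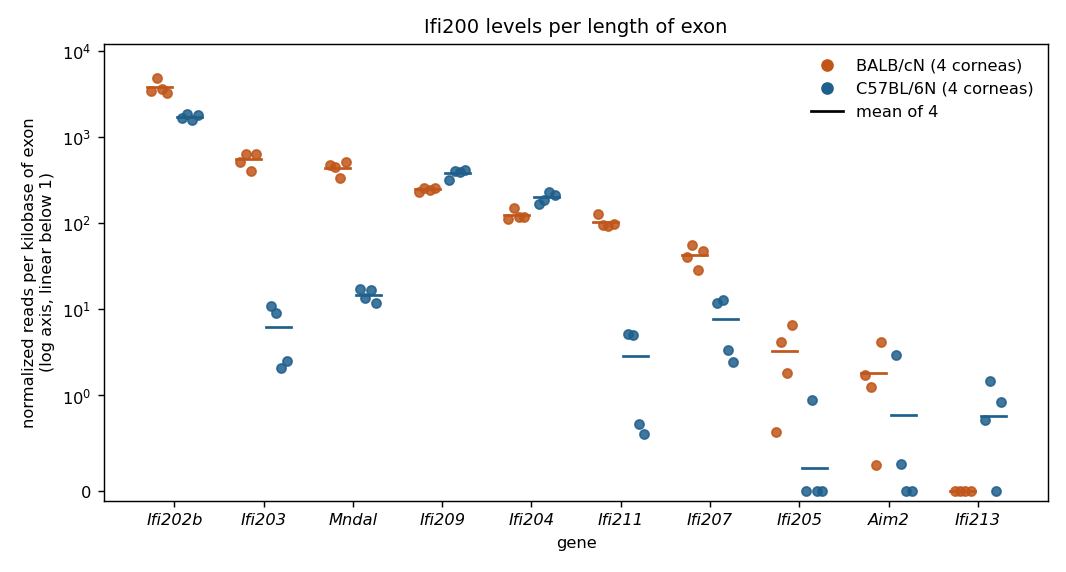
Normalised reads per kilobase of exon are plotted for each cornea on a log axis that is linear below 1, with a line at the mean of 4. Ifi202b is highest in both strains, and the members next to it are Ifi203 and Mndal in BALB/cN and Ifi209 and Ifi204 in C57BL/6N.

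Levels of different genes were compared per kilobase of exon, taken as the union of all annotated exons of a gene. For Ifi203 this union was 6706 bases, while its longest transcript had 3754. The order of members with close levels can therefore depend on the length used. In BALB/cN the order was Ifi202b at 3760 ± 742 normalised reads per kilobase, Ifi203 at 549 ± 110, Mndal at 442 ± 78.4, Ifi209 at 246 ± 13.5, Ifi204 at 125 ± 17.8, Ifi211 at 103 ± 16.0 and Ifi207 at 43.0 ± 11.5. The means of Ifi203 and Mndal differed by less than the SD of Ifi203, but Ifi203 was higher in 4 of 4 corneas. Ifi204 was higher than Ifi211 in 3 of 4. In C57BL/6N, Ifi202b at 1710 ± 135 was followed by Ifi209 at 382 ± 43.6 and Ifi204 at 200 ± 28.2. The next member, Mndal, had 14.8 ± 2.51 reads per kilobase, followed by Ifi207 with 7.64 ± 5.50, Ifi203 with 6.16 ± 4.52 and Ifi211 with 2.87 ± 2.56. Ifi207 was higher than Ifi203 in 3 of 4 corneas, and Ifi203 higher than Ifi211 in 4 of 4. Ifi205, Aim2 and Ifi213 had at most 3.27 reads per kilobase on average in either strain.

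Within C57BL/6N, some members split the corneas in a way that others did not. Normalised reads of Ifi203 were 73.4 and 60.9 in corneas 1 and 2 against 13.9 and 16.9 in corneas 3 and 4. Ifi207 gave 40.8 and 44.0 against 11.4 and 8.47, and Ifi211 gave 9.17 and 8.99 against 1.26 and 1.06. Mndal, with 62.2, 49.0, 60.7 and 43.4, showed no such split, and neither did Ifi202b with 2800, 3130, 2640 and 3050. Ifi204 split these corneas the other way, with 599 and 660 against 822 and 765. The highest C57BL/6N level of Ifi207, 44.0, was still below the lowest BALB/cN level of 98.8.

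The content of other cell types split the same corneas. Summed normalised reads of 10 keratocyte genes of the stroma, among them Kera and Lum, were 444000 and 435000 in C57BL/6N corneas 1 and 2 and 49000 and 52200 in corneas 3 and 4. The sums of 8 genes of blood and lymphatic endothelium were 1520 and 1770 against 258 and 228. The 17 macrophage genes summed to 4000, 4650, 3830 and 3530, with most reads from Itgam and Cd68. Neither gene was lower in corneas 3 and 4. Their rlog values in corneas 1 to 4 were 10.42, 10.56, 10.89 and 10.7 for Itgam and 9.93, 10.12, 10.16 and 10.26 for Cd68. The rlog value of Csf1r, the receptor on which macrophages depend, was 7.69 and 7.97 in corneas 1 and 2 against 6.36 and 6.39. Most other genes of the list were lower in corneas 3 and 4 too, so the sum hides their split. In bulk RNA, fewer cells of a type and less RNA per cell cannot be told apart. The part of these cell types in the levels of Ifi203, Ifi207 and Ifi211 was not tested.

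BALB/cN corneas were ordered otherwise. The keratocyte sum was lowest in cornea 2, at 97400 against 309000, 314000 and 334000 in corneas 1, 3 and 4. That cornea had the highest normalised reads of the strain for Ifi203 (4270, against 4250 in cornea 4), Ifi207 (191), Ifi202b (8230) and Ifi204 (539). Cornea 3 was lowest for Ifi203 (2720), Ifi207 (98.8), Mndal (1200) and Ifi211 (167). Corneas 1 and 4 stood apart in genes of neighbouring tissues. The summed pigment cell genes were 19400, 356, 210 and 43700 in BALB/cN corneas 1 to 4, and the lens genes were 12400, 2490, 3230 and 6890. Endothelial genes summed to 2000, 580, 1240 and 2100. Normalised reads of Mndal were highest in cornea 4 (1860), followed by cornea 1 (1720), as the pigment cell sum was. Aim2 had the same order, on 15 and 7 recovered reads in these corneas. The other members with reads in BALB/cN were not ordered as the pigment cell sum. The part of these tissues in the levels of the members was not tested. Between the lowest and highest BALB/cN cornea, Ifi203 varied 1.57-fold, Mndal 1.55-fold and Ifi209 1.13-fold.

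**Figure D5:**
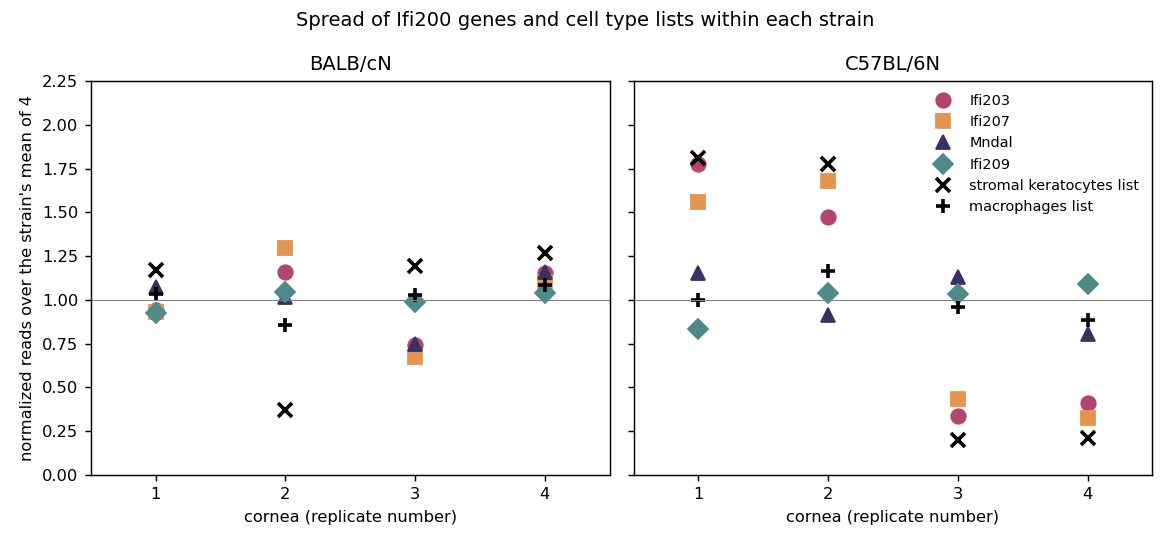
Normalised reads of 4 Ifi200 genes and of the keratocyte and macrophage lists are plotted for each cornea, divided by the mean of the 4 corneas of the strain (line at 1). Most reads of the macrophage list are from Itgam and Cd68. In C57BL/6N corneas 3 and 4, Ifi203, Ifi207 and the keratocyte list are low together while Mndal and Ifi209 are not, and in BALB/cN cornea 2 the keratocyte list is low while Ifi203 and Ifi207 are high.

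Between the strains, the macrophage genes overlapped in their sum, with 4110 to 5230 normalised reads in BALB/cN and 3530 to 4650 in C57BL/6N. Most of these reads were from Itgam and Cd68, so the sum says little of the other genes. No macrophage gene was at 0 in all corneas. Of all tested genes, limma called 2.83% higher and 2.91% lower, with a median rlog difference of 0.01. Of the 17 macrophage genes tested, 1 was higher, 0 were lower and the median rlog difference was 0.20, with a higher mean in BALB/cN for 16 of 17. The exception was Itgam, with 1380 ± 227 normalised reads in BALB/cN and 1650 ± 317 in C57BL/6N, and Cd68, with 1320 ± 54.8 and 1090 ± 141, did not overlap between the strains. The gene called was Aif1, which encodes the calcium-binding protein IBA1 (limma, rlog difference 1.66, SE 0.10, adjusted p = 6.58e-06). Csf1r (0.59, SE 0.42) and C1qa (0.23, SE 0.28) were not called by limma, with adjusted p = 0.451 and 0.665. The keratocyte sums overlapped too, and 0 of 10 of these genes were called (limma).

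Genes of inflammasomes, both partners of AIM2 and other sensors, were counted next. Of 12 genes listed, 11 were tested, of which 0 were higher and 2 lower in BALB/cN, with a median rlog difference of -0.02. Over all tested genes 2.83% were higher and 2.91% lower, with a median of 0.01. Pycard, which encodes the adaptor ASC, had an rlog difference of -0.90 (SE 0.07, limma, adjusted p = 3.82e-05), with 822 ± 82.5 normalised reads in BALB/cN and 1930 ± 166 in C57BL/6N. Nlrp1b, a sensor of bacterial protease, was lower by an rlog difference of -1.1 (SE 0.12, limma, adjusted p = 0.000249), with 4.29 ± 3.65 normalised reads in BALB/cN and 85.4 ± 29.2 in C57BL/6N. Casp1, the protease gene that acts with ASC, had 13.5 ± 8.31 and 0.749 ± 1.5 normalised reads in BALB/cN and C57BL/6N, and its corneas did not overlap (limma, adjusted p = 0.0618). Gsdmd, the pore-forming target of caspase-1, had 539 ± 52.9 and 460 ± 31.3 (adjusted p = 0.216), and the cytokine gene Il18 had 1280 ± 125 and 1860 ± 380 (limma, adjusted p = 0.0452), above the threshold of 0.01.

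Among genes of cytosolic DNA sensing, 16 were tested, 2 were higher and 0 lower, against 2.83% and 2.91% of all tested genes. The median rlog difference was 0.16, against 0.01 over all tested genes. The 2 higher genes were Zbp1, a sensor of left-handed nucleic acids, with an rlog difference of 3.23 (SE 0.14, limma, adjusted p = 9.44e-07), and the transcription factor gene Irf7 with 1.93 (SE 0.09, adjusted p = 1.31e-06). Cgas, whose product makes the messenger that activates STING, had 272 ± 14.8 and 202 ± 26.3 normalised reads in BALB/cN and C57BL/6N (limma, adjusted p = 0.0582). Tmem173, which encodes STING, had 109 ± 35.1 and 93.3 ± 78.8 (limma, adjusted p = 0.667).

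Genes of interferon signalling were tested in 17 cases, of which 5 were higher and 0 lower, against 2.83% and 2.91% of all tested genes. The median rlog difference was 0.08, against 0.01 over all tested genes. Usp18, a brake on the interferon receptor, had an rlog difference of 3.21 (SE 0.22, limma, adjusted p = 1.55e-05). Irf9 and Stat2, whose products take part in the complex that binds the response element printed above, had differences of 1.59 and 1.16 (limma, adjusted p = 4.25e-06 and 0.000133). Socs1 was called as well, with 0.66. The receptor genes Ifnar1 (-0.12, adjusted p = 0.271) and Ifnar2 (0.07, adjusted p = 0.818) were not called by limma, and the interferon genes Ifnb1, Ifna4 and Ifng were listed at 0 in all corneas.

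Of 38 interferon-stimulated genes outside the cluster, 34 were higher and 0 lower in BALB/cN, against 2.83% and 2.91% of all tested genes. Their median rlog difference was 1.74, against 0.01 over all tested genes, and the mean was higher in 38 of 38. The largest were Ifi44 with 4.75 (SE 0.30), Rsad2 with 4.23 (SE 0.38), Oas2 with 3.85 (SE 0.19) and Cmpk2 with 3.66 (SE 0.26). The summed normalised reads of this list were 158000, 186000, 129000 and 196000 in BALB/cN corneas 1 to 4, lowest in cornea 3 as Ifi203, Ifi207, Mndal and Ifi211 were. In C57BL/6N they were 46500, 46000, 52900 and 52900, so the sum was not lower in corneas 3 and 4. The 4 genes named above, picked for the size of their strain difference, were lower there than in corneas 1 and 2, however. Ifi44 had rlog values of 8.46, 7.65, 7.0 and 7.12 in C57BL/6N corneas 1 to 4, and Rsad2 had 7.35, 6.97, 6.21 and 5.96. The values were 9.25, 9.13, 8.48 and 8.78 for Oas2 and 6.46, 6.65, 6.02 and 6.06 for Cmpk2. Other genes of the list, among them Oasl1, Oasl2, Ifih1 and Ddx58, were higher in corneas 3 and 4 than in corneas 1 and 2. The list thus held genes of either direction. All of these lists were drawn up with earlier results of these corneas known.

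Over the 8 corneas, each centred on the mean of its strain, the genes outside the family most like the mean profile of the members were Mto1, Trmt11, Ifit3b, 0610037L13Rik and Polr2l, with Pearson's r of 0.96, 0.95, 0.95, 0.95 and 0.94. They were the highest of 25385 genes, and all points share library and depth. By Spearman's rho, 2 of these 5 were again among the first 5.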

How the data were processed

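Paired reads of 100 bases from strand-specific total RNA libraries were, per the study's methods, trimmed, freed of ribosomal and transfer RNA, aligned with TopHat2 2.1.1 to strain-specific pseudo-genomes of GRCm38, converted back with Lapels and counted over the union of exons of each gene of Ensembl release 94 with HTSeq 0.7.1. The version of DESeq2 in the submitters' processing notes is 1.30. The authors deposited log2-scale rlog values from DESeq2 for 8 corneas, and 0 columns were left unused. Of 54532 genes, 23218 were at 0 in all corneas. How reads that align to several places were treated is not given in the sources used here.

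Reads were recovered from the rlog values by inverting the transformation with constants fitted to the table itself. Of the recovered reads, 99.5% lay within 0.1 of a whole number for genes with a normalised mean up to 1, and 91.8% between 1 and 20. The share was 95.9% between 20 and 100, 92.0% between 100 and 1000, 55.1% between 1000 and 5000 and 21.9% above. In the highest class most recovered reads were thus not near a whole number, and their precision is not known.

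Strains were compared with limma 3.58.1 in R 4.3.3 (lmFit, eBayes with a variance trend, Benjamini-Hochberg adjustment) over the 25402 genes whose rlog values averaged 0 or more, and a gene was called at an adjusted p of 0.01 or less. The members, the gene lists and the tests were chosen with earlier results of these data known. Named were all members, the other family genes, the tested genes of the interval and nearest to it, up to 4 called genes per list by size of difference, the defining genes that were not called, and the 5 genes with the most similar profile. Some genes that this rule names are not reported here. The scripts were tested on simulated data. Gene positions came from GENCODE M21 (Ensembl release 96, GRCm38), whose build is that of the authors, promoter sequences from RefSeq (GRCm38.p6), and shared windows from the GENCODE transcripts. The alternatives were other variance settings, filters, scalings, thresholds, a replicate block, recalibrated p-values and leaving out each cornea. The p-values measure the spread between corneas, which may be technical. No 2 corneas of a strain were alike within counting noise, with a chi-square per gene of 6.11 to 30.94.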

Additional observations from a re-analysis of the deposited data

Results flagged for a closer look

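In 122 groups of 4 corneas, 12 held a cornea beyond the critical value of Dixon's test. The test takes the gap to the nearest neighbour as a share of the group's range. For normally distributed values, chance alone gives about 6.1. Groups with reads in only 1 cornea can exceed the critical value by construction, so no excess is read from the 12 flagged corneas. Among the members, these were C57BL/6N cornea 1 for Aim2 (0.894, with 10 reads), BALB/cN cornea 2 for Ifi204 (0.853), BALB/cN cornea 1 for Ifi211 (0.876) and C57BL/6N cornea 2 for Ifi205 (0.953, with 4 reads). Each was the high cornea of its group. Among the other family genes they were C57BL/6N cornea 1 for Ifi206 (0.985) and C57BL/6N cornea 4 for Ifi208 (0.985), each with 2 reads where the others had 0. Further genes were Casp1 in C57BL/6N cornea 2 (0.938), Ifnar2 in C57BL/6N cornea 4 (0.906, the low cornea) and Il1b in BALB/cN cornea 1 (0.835). Of the summed lists, BALB/cN cornea 2 was high for granulocyte genes (0.836) and low for keratocyte genes (0.894). The granulocyte sum in BALB/cN was nearly all Kit, with 7760 ± 924 normalised reads, against 7.27 ± 8.85 for S100a9, the next highest tested gene. That flag therefore concerns Kit rather than granulocytes. BALB/cN cornea 3 was high for red blood cell genes (0.968).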

How the results depend on the processing

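Of the 10 member differences, those of 9 kept their sign under every alternative run, and that of Aim2 went from 0.07 to -0.01 with each cornea centred on its median. With p-values recalibrated to an empirical null (SD 1.68) limma called 0 genes in all and 0 in each list. Before adjustment, 1690 of 25402 genes had a recalibrated p under 0.05. Among them were 7 of 10 members, from which nothing is read, since this contrast named them. The others were 2 of 9 other cluster genes, 2 of 11 inflammasome and 2 of 16 DNA sensing genes. Of the further lists, 5 of 17 signalling, 36 of 38 interferon-stimulated and 1 of 17 macrophage genes were under 0.05. The number called among all genes, 1458, moved to 958 with each cornea centred on its median, to 554 with a replicate block and to 2842 at an adjusted p of 0.05. Without 1 cornea it ranged from 951 (without C57BL/6N cornea 4) to 1162, and was 971 without BALB/cN cornea 3. The block called 5 members. Deviations of same-numbered corneas correlated at 0.31, -0.53, -0.20 and -0.45, so the numbers do not pair the corneas. The members called ranged from 5 to 7 without 1 cornea, with Ifi209 lost and Ifi204 gained, and the number with a higher mean was 7 in each case. Ifi209 was also lost under the block and the centring. The other cluster genes called rose from 1 to 2, by Ifi214, without a variance trend, with robust eBayes, with a mean of at least log2(10) and at an adjusted p of 0.05, and stayed at 1 without any cornea. At 0.05 the DNA sensing count was 4. Ranges without 1 cornea were 2 to 2 for the inflammasome, 2 to 2 for DNA sensing, 4 to 5 for signalling, 30 to 34 for interferon-stimulated genes and 1 to 1 for macrophages. The causes of these changes were not tested. As a ratio of recovered reads, the member differences were larger than on the rlog scale in each of the 9 members with a ratio. Members with few reads (Aim2, Ifi205, Ifi213) are limited by depth.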
